A study of Mus musculus with 9 samples.

Results

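The comparison of genotype in males rests on 4 of the 9 brown adipose tissue (BAT) libraries of the study, 2 from males labelled KO and 2 from males labelled WT. KO stands for GHRH-KO, mice that lack growth hormone releasing hormone (GHRH) in the whole body. The libraries were chosen by the letter M in their titles, and each came from a different animal by the animal numbers in those titles. The WT animals were littermates of the GHRH-KO mice, the genetic background mixed C57BL6 with 129SV, and standard chow and water were freely available, and their ages are not given in the sources used here. The 5 female libraries (2 labelled KO and 3 labelled WT) serve below only for the spread of the model and to show where the males differ. Of the 24356 gene symbols with a value, 11039 lay above 0 FPKM (fragments scaled to transcript length and to the mapped fragments of the library) in all 4 male libraries with a mean of at least 1 FPKM, and these are the genes tested. Another 70 genes reached that mean but were listed at 0 in a male library, most of them short RNAs and some of them lymphocyte genes.

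GHRH is released by the hypothalamus and drives the pituitary to secrete growth hormone (GH). GH acts through its receptor, the kinase JAK2 and the transcription factor STAT5 to induce insulin-like growth factor 1 (IGF-1) and feedback inhibitors such as CISH, and in fat it opposes lipid storage. BAT is a vascular fat depot whose adipocytes burn fatty acids in mitochondria uncoupled by UCP1, and it lies against skeletal muscle and lymph nodes, whose RNA can enter a dissected sample.

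The 4 male libraries did not stand on equal footing. Summed FPKM ran from 404830 to 443569, and depth estimated from low values ran from 0.971 to 1.14 relative to the first WT female, so depth differed little. KO male 1 carried lymphoid and myeloid transcripts, and its Spearman correlations with the other males were 0.875 to 0.901 against 0.934 to 0.974 among those. The ribosomal transcripts Mir6236, Mir6240 and Rn45s took 8.40% of summed FPKM in KO male 1 and 14.0% in KO male 2, against 4.93% and 3.23% in the WT males and 4.40% to 6.14% in the females. WT male 2 was high in immediate early and haemoglobin genes. The sex labels held, with Xist at most 0.0162 FPKM and Ddx3y at 9.27 to 11.6 FPKM in the males. The targeted gene went against the genotype labels: Ghrh (chr2:157329497-157347506, minus strand, mm10) was at 0.799 and 0.470 FPKM in the males labelled KO and at 0 in both labelled WT, and likewise above 0 in both females labelled KO and at 0 in the 3 labelled WT. The deleted stretch is not given in the sources used here, so every direction below follows the labels only, and KO male or WT male means a library so labelled. In whole tissue, fewer cells of a type and less RNA per cell cannot be told apart.

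**Figure D1:**
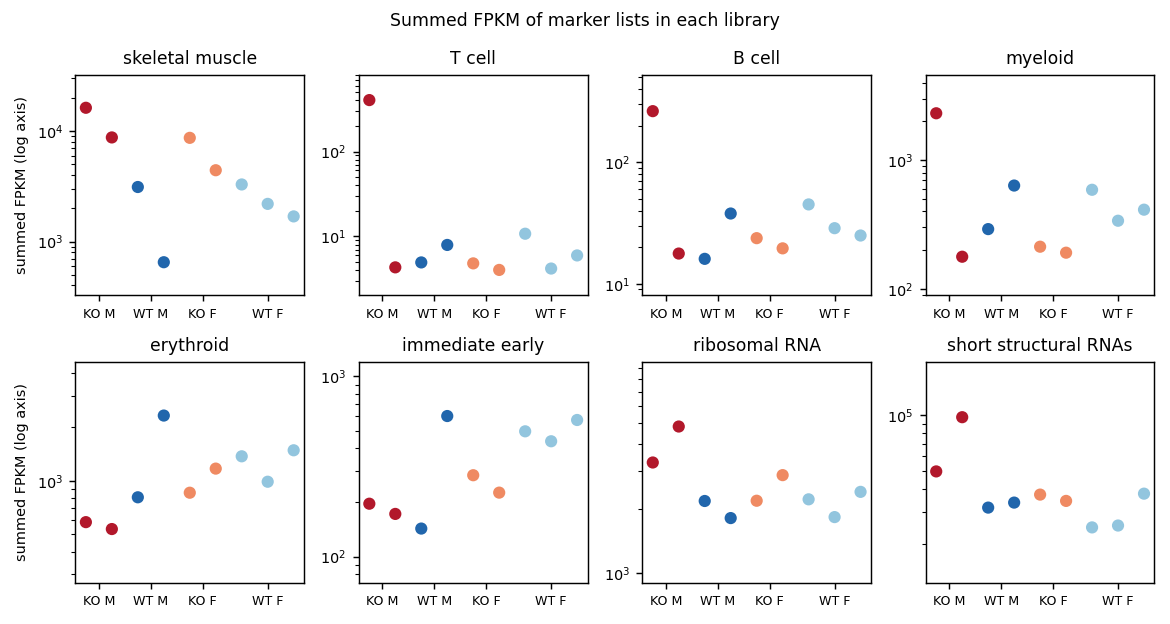
Summed FPKM of 8 marker lists (log axes) in the KO males, WT males, KO females and WT females, 1 point for each library. Skeletal muscle lay above in both KO males (16262 and 8761 against 3116 and 649), T and B cell and myeloid markers stood out in KO male 1 alone, and the 2 lists of ribosomal and short structural RNA were highest in KO male 2.

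Genes on which both KO males lay on the same side of both WT males numbered 4568 of 11039 (41.4%). They were lower in the males labelled KO in 3497 (31.7% of the tested genes) and higher in 1071 (9.7%). These shares are the background for the count of every gene list below as deposited. After rescaling to the total without ribosomal and short structural RNA, 2622 of 11026 tested genes lay below and 1703 above. Those are the background for the rescaled counts below. The median log2 difference over all tested genes was -0.09, and the excess of lower genes depended in part on scaling. Higher genes made up 23.4% of the separated genes as deposited, 33.6% after median centring, 36.2% after quantile normalization and 39.4% after rescaling to the total without ribosomal and short structural RNA. If the labels were exchangeable, the expected share of separated genes would be 0.333, so the counts of separated genes are descriptions. For the same reason an exact permutation test of 2 against 2 libraries cannot go below p = 0.333 (two-sided). The test used was therefore limma, with the spread shared over all 9 libraries, and it called 13 genes at a Benjamini-Hochberg adjusted p under 0.05, of which 10 were lower (0.0906% of tested genes) and 3 higher (0.0272%). An adjusted p under 0.1 was reached by 675 genes (6.11%), and an ordinary linear model at an unadjusted p under 0.01 called 112 higher (1.01%) and 572 lower (5.18%). The calls were not stable in number or in the genes called. There were 0 with the 4 male libraries alone and 0 without WT female 1 or WT female 2. There was 1 without WT female 3, a gene outside the 13. Leaving out a male or a KO female leaves 1 library in a group, so calls of those fits are not counted here.

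The lowest adjusted p belonged to Svep1 and Lmo1. Svep1 is a large secreted matrix protein with a role in lymphatic and vascular development (chr4:58042442-58206859), and its FPKM was 0.364 and 0.413 in the KO males and 3.62 and 5.51 in the WT males, a log2 difference of -3.52 (SE 0.29, limma adjusted p = 0.0205). The groups did not overlap in females either, where the highest value labelled KO was 0.586 and the lowest labelled WT was 2.16 FPKM. Lmo1, a LIM-domain transcriptional cofactor (chr7:109138572-109175207), was at 3.28 and 2.83 against 12.0 and 9.96 FPKM (-1.84, SE 0.16, adjusted p = 0.0205). Sctr, the receptor of the gut hormone secretin, which is known to act on brown fat (chr1:120006894-120063536), was at 0.721 and 0.771 against 5.04 and 6.67 FPKM (-2.96, SE 0.33, adjusted p = 0.043).

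Lower genes with smaller differences had tight replicates. Ccdc3, a secreted protein of adipocytes and endothelium, was at 10.1 and 10.1 against 21.9 and 27.3 FPKM. Angptl2, an adipose-derived angiopoietin-like protein, was at 16.9 and 21.3 against 39.9 and 39.8. Ahnak, a giant scaffold protein, was at 16.0 and 17.1 against 31.3 and 37.9. The log2 differences of these genes were -1.28, -1.07 and -1.06. Nudt8, a mitochondrial nudix hydrolase, was at 22.5 and 22.0 against 42.6 and 46.4 FPKM, and Dgkd, a diacylglycerol kinase, at 20.7 and 20.7 against 34.4 and 32.5. Rtn3, a reticulon of the endoplasmic reticulum, and the predicted gene Gm5617 completed the lower calls, at -0.62 and -0.74. In the females each of these 10 genes also had a negative log2 difference, from -0.17 for Gm5617 to -2.59 for Sctr.

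The 3 higher calls were genes known to be expressed in skeletal muscle. Fndc5, the precursor of irisin, was at 4.44 and 5.87 against 1.40 and 0.984 FPKM (2.12, SE 0.24, adjusted p = 0.043). Synpo2, an actin-binding protein of muscle, was at 7.25 and 6.28 against 2.24 and 2.01 (1.67, adjusted p = 0.0481). Tuba4a, an alpha-tubulin, was at 60.0 and 45.5 against 18.4 and 16.6 (1.58, adjusted p = 0.043). The summed muscle markers moved with these genes, and their part in the calls was not tested.

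**Figure D2:**
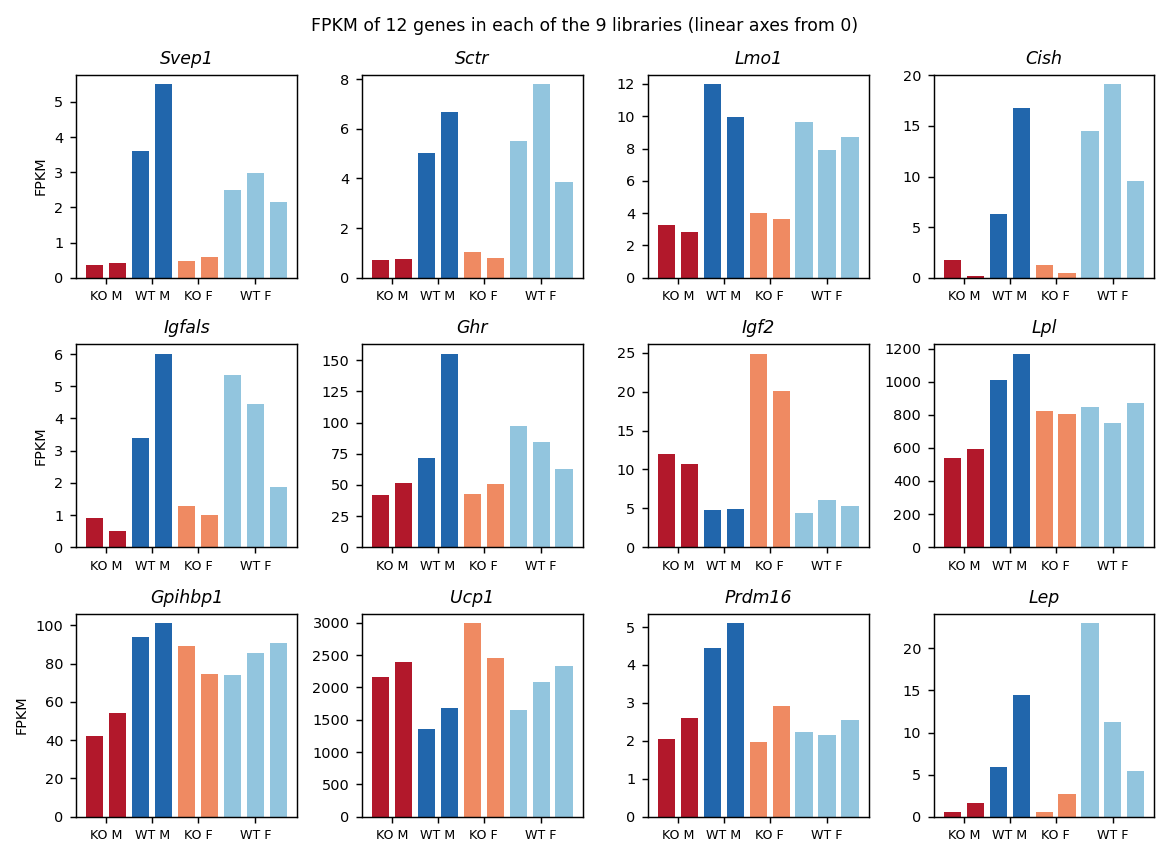
FPKM (linear axes from 0) of 12 genes, 1 bar for each library, in the order KO males, WT males, KO females, WT females. Svep1, Sctr, Lmo1, Cish and Igfals were low in all 4 KO libraries, while Lpl, Gpihbp1 and Prdm16 were separated in the males and overlapped in the females.

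In the GH and IGF axis 11 of 31 tested genes lay below and 3 above in both KO males (35.5% and 9.68% of the list, against 31.7% and 9.7% of all tested genes), none was called, and the median log2 difference was -0.19 (-0.43 without KO male 1, -0.09 without KO male 2, -0.34 without WT male 1 and -0.11 without WT male 2). The feedback inhibitor Cish and Igfals, the acid-labile subunit that carries IGF-1 in serum, were far below WT. Both are known targets of STAT5, which binds the palindrome TTCNNNGAA, so RefSeq promoter windows (GRCm38.p6, 250 bases before to 50 after each start) were searched for that motif. It occurs in 8.30% of 32851 windows, and 2 or more times in 0.457%. Of 28 genes of the axis with a window, 3 held it: Cish (2 matches in its window), Igfals (1 match in each of 2 of its windows) and Socs3. Igf1 held no match. The 28 are genes, and a gene can have more than 1 window, whereas 8.30% is a share of windows. No excess of the motif in the axis was therefore tested. Of the 2 Igfals matches, that at chr17:24877608-24877616 is not printed. The stretches with the other matches of Cish and Igfals follow, 5′ to 3′ on the plus strand, with the motif in capitals. They lie at chr9:107296589-107296688 (Cish), where the motifs fall just past the annotated start, and at chr17:24878128-24878227 (Igfals), upstream of a start. A match is a run of letters and was not tested for binding.
Cish: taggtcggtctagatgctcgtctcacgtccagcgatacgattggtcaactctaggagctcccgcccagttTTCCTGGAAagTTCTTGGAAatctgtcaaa
Igfals: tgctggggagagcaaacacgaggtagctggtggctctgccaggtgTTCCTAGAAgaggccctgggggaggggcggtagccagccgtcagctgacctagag

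Cish was at 1.74 and 0.165 FPKM in the KO males and 6.31 and 16.8 in the WT males (-4.26, SE 1.06, adjusted p = 0.0906). Igfals was at 0.922 and 0.506 against 3.39 and 6.01 FPKM (-2.72, SE 0.55, adjusted p = 0.0682). Neither group overlapped for these 2 genes, and both were also below in KO females, by -4.16 and -1.65.

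Among the receptors, Ghr, the GH receptor (chr15:3317760-3583492), was at 42.2 and 51.6 FPKM against 71.2 and 155 (-1.17, SE 0.35, adjusted p = 0.131). Insr, the insulin receptor, was at 5.66 and 6.78 against 8.04 and 10.4, and Irs2, its adaptor, at 1.36 and 1.59 against 3.18 and 15.4. WT male 2 held the highest value of all 3 genes. Igf2r, which clears IGF-2, was at 4.99 and 5.22 against 7.68 and 8.39 (-0.65). Stat5b lay the other way, at 18.5 and 13.2 against 10.7 and 10.8 (0.54).

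Of the ligands, Igf1 was not separated, at 2.46 and 1.28 FPKM against 2.13 and 8.80 (-1.29, SE 0.67, adjusted p = 0.358). Igf2, the fetal growth factor, was higher in both KO males, at 12.1 and 10.7 against 4.82 and 4.89 (1.23, SE 0.17, adjusted p = 0.0522). H19, the noncoding RNA of the same imprinted locus, was at 35.3 and 78.7 against 14.0 and 4.45 (2.74, SE 0.59, adjusted p = 0.0759). The difference of Igf2 in females was 2.10, and the difference between the sexes was -0.88 log2 units (limma adjusted p = 0.521). Among 18 imprinted genes tested, 5 lay above and 5 below (27.8% each, against 9.7% and 31.7% of all tested genes, median -0.11).

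The thermogenic programme of the brown adipocyte was mixed. Of 33 tested genes 11 (33.3%) lay below and 5 (15.2%) above in both KO males, near the 31.7% and 9.7% of all tested genes, and the median was -0.15 (-0.25 without KO male 2). Ucp1, the uncoupling protein, was at 2164 and 2399 FPKM against 1357 and 1681 (0.59, SE 0.21, adjusted p = 0.186). Acot11, a thioesterase induced by cold, was at 66.4 and 108 against 61.2 and 36.1, and the coactivator Ppargc1a at 7.57 and 11.2 against 6.16 and 5.74. So the effector of heat production was the higher one in both KO males, with no gene of the list called.

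Other members of the list lay below in both KO males, among them 4 transcription factors, and none was called. Prdm16, a regulator of brown fat identity, was at 2.04 and 2.61 FPKM against 4.45 and 5.10 (-1.04, SE 0.23, adjusted p = 0.0805). Zic1 was at 0.442 and 1.22 against 1.72 and 2.51, and Lhx8 at 0.602 and 0.906 against 1.62 and 3.43. Irf4, which drives fasting-induced and thermogenic genes with PGC-1 alpha, was at 3.82 and 2.50 against 8.21 and 41.0, with WT male 2 well above the rest. Nrg4, a growth factor secreted by brown fat, was at 26.7 and 36.8 against 50.9 and 48.7. Cidea, a lipid droplet protein abundant in brown fat, was at 1195 and 1325 against 1860.1 and 1605. The beta-1 adrenoceptor Adrb1 was at 2.12 and 6.62 against 8.71 and 16.0. Pparg, the master regulator of adipocytes, was at 112 and 100 against 110 and 120, with overlap. In females the log2 differences were 0.06 for Prdm16, 0.20 for Zic1, -0.56 for Lhx8, -0.36 for Irf4, 0.05 for Nrg4, -0.02 for Cidea and -1.29 for Adrb1.

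Genes of lipid uptake and storage lay lower in the males labelled KO. Of 25 tested genes of lipolysis and the lipid droplet, 20 (80%) lay below in both KO males against 31.7% of all tested genes, 1 lay above, and the median was -0.43 against -0.09 for all tested genes. None was called at 0.05, and 6 had an adjusted p under 0.1 against 6.11% of all tested genes. After rescaling without ribosomal RNA 14 of 25 lay below with no overlap (median -0.37).

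Lpl, the lipase that frees fatty acids from lipoproteins, was at 541 and 593 FPKM against 1010 and 1168 (-0.94, SE 0.13, adjusted p = 0.0522). Gpihbp1, the endothelial protein that carries it to the capillary wall, was at 42.2 and 54.4 against 93.9 and 101 (-1.02, SE 0.16, adjusted p = 0.0577). Enzyme and anchor were thus lower by about the same factor in both KO males. Cd36, the fatty acid transporter, was at 279 and 353 against 459 and 534 (-0.66), and Fabp4, the fatty acid binding protein, at 8974 and 11042 against 14637 and 15156 (-0.58).

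On the droplet itself, G0s2, the inhibitor of triglyceride lipase, was at 123 and 176 FPKM against 398 and 383 (-1.41, SE 0.22, adjusted p = 0.0577). Cidec, which enlarges droplets, was at 383 and 355 against 533 and 689 (-0.72), and Plin4, a droplet coat protein, at 39.5 and 52.3 against 72.7 and 124 (-1.06). The lipases were less far apart, with Pnpla2 at 901 and 977 against 1169 and 1277 and Lipe at 313 and 440 against 466 and 473. The single gene above was Fitm1, at 23.6 and 14.8 against 6.45 and 0.886, a droplet protein known from skeletal muscle. Angptl4, a secreted LPL inhibitor, overlapped between the groups.

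**Figure D3:**
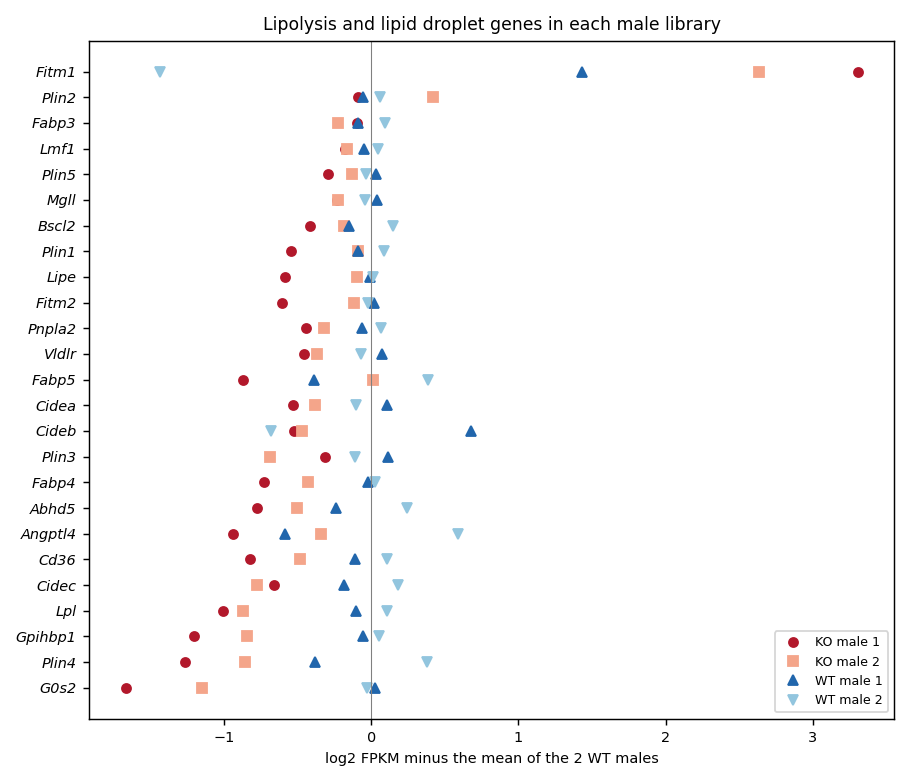
The 25 tested genes of lipolysis and the lipid droplet, as log2 FPKM minus the mean of the 2 WT males, 1 symbol for each male library. Both KO males lay to the left of both WT males for 20 genes, with the widest separation in G0s2, Gpihbp1 and Lpl, and to the right for Fitm1.

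In females the same list had a median of -0.06, with Lpl at -0.01, Gpihbp1 at -0.03 and Cd36 at -0.08. The difference of the KO effect between the sexes had an unadjusted limma p under 0.05 in 10 of 25 genes against 7.45% of all tested genes, but none of the 11039 genes passed adjustment (lowest adjusted p = 0.270).

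De novo lipogenesis gave a split picture. The list of 22 had 6 genes (27.3%) below and 1 (4.55%) above, under the 31.7% and 9.7% of all tested genes. Its median was -0.50 in KO male 1 and 0.21 in KO male 2. Fasn, fatty acid synthase, was at 629 and 1303 FPKM against 1364 and 664, so each group held a high and a low library. Srebf1, its transcriptional activator, was separated, at 40.5 and 40.2 against 76.8 and 70.3 (-0.86, adjusted p = 0.13). Acacb, which makes the malonyl-CoA that restrains mitochondrial fatty acid entry, was at 62.6 and 96.4 against 135 and 124. Lpin1 and Dgat2, enzymes of triglyceride assembly, were at 60.1 and 63.0 against 83.4 and 80.5 and at 842 and 768 against 1151 and 1012.

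Of 36 tested genes of fatty acid oxidation 19 (52.8%, against 31.7% of all tested genes) lay below in both KO males and 1 above, and none was called. The median was -0.26 (-0.13 without KO male 1 and -0.17 without WT male 1), and after rescaling 11 lay below and 2 above. Acad10 was at 14.9 and 15.6 FPKM against 23.1 and 23.4 (-0.61, SE 0.09, adjusted p = 0.0522), and Acad11 at 47.1 and 50.9 against 64.2 and 74.6 (-0.50). Both are acyl-CoA dehydrogenases. Etfb, which passes their electrons on, was at 844 and 889 against 1230 and 1126. The female median of the list was 0.15.

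Respiratory chain genes showed small differences that depended on scaling. Of 37 complex I subunits 25 (67.6%) lay below and 2 above (median -0.15). Of 45 subunits of complexes II to V 22 (48.9%) lay below and 4 above (median -0.11, and -0.06 without WT male 1). Of all tested genes 31.7% lay below and 9.7% above. After rescaling without ribosomal RNA, 6 complex I subunits lay below and 4 above, and 4 subunits of the other complexes lay below and 4 above. The medians were then -0.09 and -0.04. Of all 11026 genes tested after rescaling, 2622 lay below and 1703 above. Ndufs7 was at 356 and 355 FPKM against 438 and 409, Ndufc2 at 329 and 324 against 393 and 399, Ndufa1 at 413 and 478 against 544 and 582, and Ndufb6 at 296 and 303 against 350 and 332. Cox7a2 and Cox7b of complex IV had log2 differences of -0.30 and -0.16. Cox6a2, the muscle form of a complex IV subunit, was far above, at 152 and 101 against 28.9 and 5.26. Atp5g1, a c subunit of ATP synthase, was at 86.0 and 44.6 against 17.4 and 13.3.

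The mitochondrial ribosome behaved likewise. Of 77 proteins 43 (55.8%, against 31.7% of all tested genes) lay below and 5 above (median -0.13, and -0.07 without KO male 1). After rescaling 16 lay below and 7 above (median -0.06). Mrpl30 was at 112 and 114 FPKM against 162 and 144 and Mrpl54, the other way, at 69.3 and 66.0 against 52.5 and 54.2. Mrpl14 and Mrpl49 had log2 differences of -0.32 and -0.36. In the citric acid cycle 8 of 23 genes lay below and 0 above, and the 34.8% below was near the 31.7% of all tested genes. The median was -0.11 (-0.05 without KO male 1 or without WT male 1, -0.17 without KO male 2 and -0.21 without WT male 2), and 2 genes lay below after rescaling. Pyruvate carboxylase (Pcx) was at 92.5 and 139 against 157 and 201, Ogdh at 312 and 350 against 387 and 370, and citrate synthase (Cs) at 610 and 695 against 819 and 725.

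Amino acid catabolism had 26 of 50 genes below and 3 above (52.0% and 6.0%, against 31.7% and 9.7% of all tested genes), with a median of -0.20. After rescaling 16 lay below and 4 above. An adjusted p under 0.1 was reached by 11 genes, against 6.11% of all tested genes, and none was called. Prodh, the first enzyme of proline breakdown, was at 15.6 and 15.9 FPKM against 26.2 and 23.4 (-0.65). Bcat2 and Ppm1k, the transaminase and the phosphatase of branched-chain amino acid breakdown, were at 76.0 and 78.3 against 104 and 106 and at 7.61 and 7.46 against 10.5 and 9.62. Hsd17b10 of isoleucine breakdown was at 193 and 180 against 236 and 263. Glul, glutamine synthetase, was at 832 and 888 against 1406 and 1159.7, and Cth of the transsulfuration pathway at 1.25 and 1.08 against 2.67 and 2.42. The aspartate transaminases Got1 (32.7 and 25.0 against 11.9 and 6.90) and Got2 (55.0 and 41.8 against 24.7 and 17.9) lay above.

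For 5 of these enzymes (Prodh, Bcat2, Ppm1k, Hsd17b10 and Glul) the females were separated in the opposite direction. Their log2 differences there were 0.92, 0.63, 0.61, 0.50 and 0.52. The median of the list was 0.12 in females, and 23 of 50 genes had an unadjusted limma p under 0.05 for the difference between the sexes, against 7.45% of all tested genes. The lowest adjusted p, 0.270, was reached by Prodh and Ppm1k among others.

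**Figure D4:**
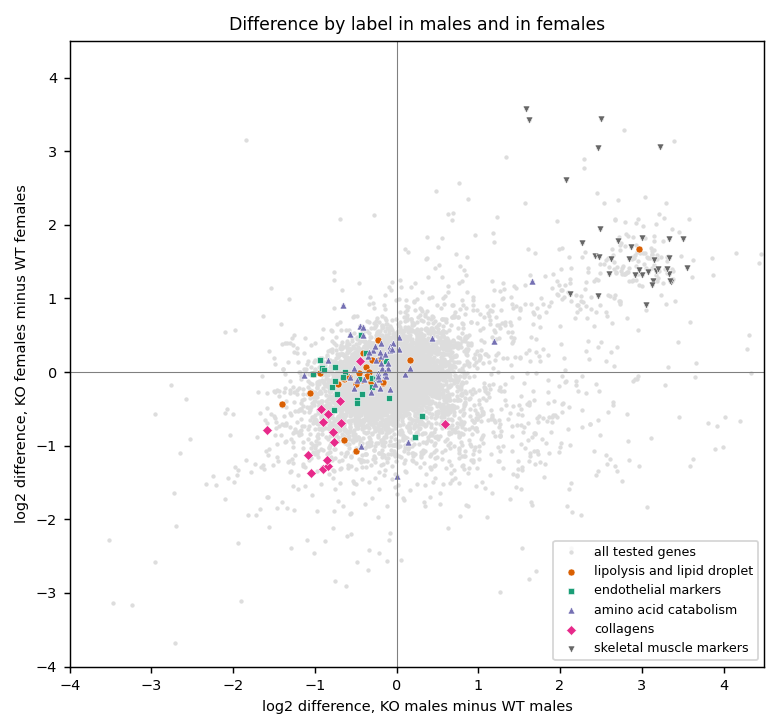
Log2 difference between libraries labelled KO and WT in males (horizontal) and in females (vertical), for all tested genes (grey) and 5 lists. Collagens and muscle markers lay mostly on the same side in both sexes. Endothelial, lipid droplet and amino acid genes were mostly negative in males. In females 16 of 24 endothelial and 18 of 25 lipid droplet genes were negative too, with medians of -0.10 and -0.06. Of 50 amino acid genes 30 were positive in females. In 21 genes a difference exceeded 4 in size in either sex.

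Antioxidant genes had 20 of 38 members (52.6%, against 31.7% of all tested genes) below and 3 above (median -0.23), and 14 below after rescaling. Gpx3, the secreted glutathione peroxidase, was at 736 and 629 FPKM against 1346 and 1684 (-1.15, SE 0.22, adjusted p = 0.0665), and Mgst1, a microsomal glutathione transferase, at 290 and 281 against 465 and 515 (-0.78). Thioredoxin (Txn1) was at 60.0 and 54.0 against 94.0 and 88.7, and Gpx7 at 2.62 and 2.16 against 3.12 and 4.07.

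Adipokines and markers of white fat were mostly lower. The list of 15 had 13 negative differences, of which 5 were separated (33.3% of the list, near the 31.7% of all tested genes), and a median of -0.97, which was -0.22 without WT male 2 and -1.67 without WT male 1. Leptin (Lep) was at 0.580 and 1.66 FPKM against 5.96 and 14.4 (-3.24, SE 0.94, adjusted p = 0.119). Adiponectin (Adipoq) was at 463 and 535 against 735 and 1014, adipsin (Cfd) at 849 and 878 against 1575 and 4423, and Car3, a carbonic anhydrase abundant in fat, at 2118 and 2167 against 4594 and 6806. WT male 2 held the highest value of all 4 genes.

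Hcar1 and Hcar2, the lactate and hydroxybutyrate receptors by which adipocytes restrain lipolysis, were among the most separated lower genes. Hcar1 was at 2.40 and 4.34 FPKM against 18.7 and 14.1 (-2.33, SE 0.30, adjusted p = 0.0522). Hcar2 was at 0.829 and 1.17 against 3.86 and 4.63 (-2.10, SE 0.30, adjusted p = 0.0522). Both were lower in the females labelled KO too, by -1.52 and -1.73.

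Of 17 secreted factors of brown fat tested, 7 (41.2%, against 31.7% of all tested genes) lay below and 2 above. Cxcl14, a chemokine released by brown fat, was at 87.7 and 106 FPKM against 37.4 and 47.7 (1.19, SE 0.26, adjusted p = 0.0782), and Ptgds, a prostaglandin synthase, at 4.34 and 4.12 against 1.86 and 1.20. Nampt, which makes NAD precursors, was at 70.9 and 69.2 against 98.7 and 105.

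Matrix genes lay lower in both sexes. Of 15 collagen chains 13 lay below and 1 above (86.7% below against 31.7% of all tested genes, median -0.84), and these counts held after rescaling. The median was -0.49 without WT male 2. Col5a2 was at 2.99 and 2.94 FPKM against 5.69 and 6.61 (-1.05), Col6a3 at 1.74 and 2.41 against 4.28 and 8.85 (-1.59), Col6a1 at 12.1 and 11.1 against 15.7 and 21.9 and Col6a2 at 11.2 and 13.8 against 17.8 and 25.4. In females 14 of 15 differences were negative and the median was -0.79.

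Other matrix genes had 32 of 69 below and 4 above (46.4% below against 31.7% of all tested genes), with Svep1 called. The median was -0.40, and -0.19 without WT male 2 or -0.72 without WT male 1. Timp3 and Timp4, inhibitors of matrix proteases, were at 40.8 and 34.0 FPKM against 75.3 and 75.8 and at 18.8 and 24.7 against 51.8 and 47.3 (-1.02 and -1.20). Periostin (Postn) was at 13.6 and 15.5 against 27.9 and 27.9. The small proteoglycans went different ways, with podocan (Podn) at 2.50 and 2.68 against 7.89 and 13.5 and fibromodulin (Fmod) at 6.53 and 1.55 against 0.386 and 0.822. Adamtsl3, an ADAMTS-like matrix protein, was at 0.529 and 0.426 against 1.94 and 1.81.

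Vessel markers were lower in the males labelled KO. Of 24 endothelial markers 16 (66.7%, against 31.7% of all tested genes) lay below and 0 above. The median was -0.49 (-0.73 without WT male 1), and 15 lay below after rescaling. Car4, a capillary carbonic anhydrase, was at 17.0 and 21.2 FPKM against 35.7 and 34.5 (-0.89, SE 0.16, adjusted p = 0.0651). Ptprb, the endothelial receptor phosphatase, was at 4.61 and 5.05 against 8.20 and 8.54, and Sox17, an arterial transcription factor, at 2.34 and 1.98 against 3.62 and 3.68. Capillary Cd300lg, the VEGF receptor Flt1 and the cadherin Cdh5 had log2 differences of -0.92, -0.93 and -0.64. Pecam1, the defining marker, overlapped, at 43.7 and 27.2 against 40.7 and 44.2. The female median was -0.10, and 10 of 24 markers had an unadjusted limma p under 0.05 for the difference between the sexes. The share of all tested genes was 7.45%, and none passed adjustment (limma, lowest adjusted p = 0.270).

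Mural cells, which wrap the vessels, had 9 of 13 markers (69.2%, against 31.7% of all tested genes) below and 1 above. Their median was -0.48, and -0.72 without KO male 1. Cspg4 (NG2) was at 3.53 and 5.86 FPKM against 11.3 and 11.6 (-1.33, SE 0.23, adjusted p = 0.059), Notch3 at 3.26 and 2.52 against 4.86 and 6.15 and Mcam at 8.77 and 9.64 against 14.1 and 23.4. Smooth muscle actin (Acta2) was at 22.5 and 16.0 against 25.5 and 27.4. Synpo2, called and higher, was the exception. Progenitor markers had 3 of 19 (15.8%, against 31.7% of all tested genes) below and 2 above. The median of these markers was -0.06, turning to 0.23 without KO male 2 and 0.24 without WT male 2. Among them Pdgfrb, also a pericyte gene, was at 4.44 and 4.75 against 8.70 and 10.6 (-1.06, SE 0.14, adjusted p = 0.0522), tissue factor (F3) was lower at 8.49 and 18.4 against 22.9 and 24.7, and Cd24a was high in KO male 1 (33.8 against 4.53 to 8.98 in the others).

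**Figure D5:**
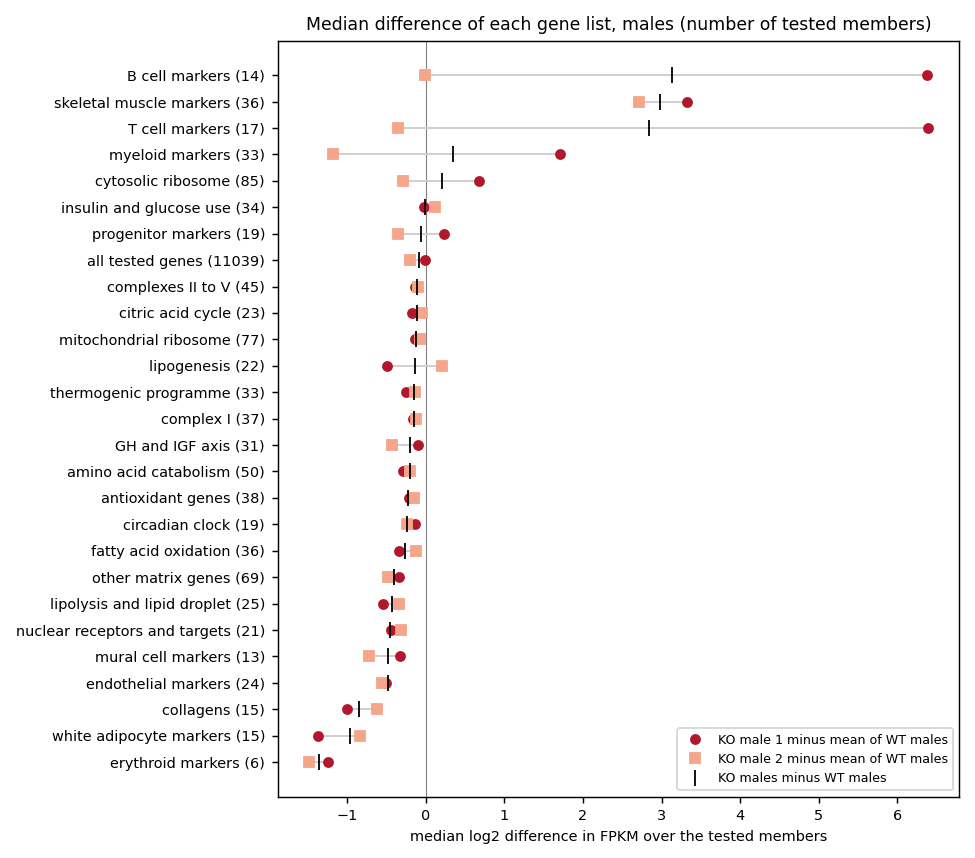
Median log2 difference of 26 gene lists and of all tested genes, with KO male 1 and KO male 2 each set against the mean of the WT males and a tick for both KO males together. The 2 KO males were apart for T cell, B cell and myeloid markers, the cytosolic ribosome and lipogenesis, and close for endothelial, lipid droplet and mitochondrial lists. They were also apart for progenitor (0.23 and -0.35), skeletal muscle (3.33 and 2.71), white adipocyte (-1.37 and -0.84) and mural cell markers (-0.33 and -0.72).

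Of 19 circadian clock genes 9 (47.4%, against 31.7% of all tested genes) lay below in both KO males and 1 above, and none was called. The median was -0.24, and -0.13 without KO male 2. In females 14 of the 19 differences were positive and 5 negative, with a median of 0.30. Per3, a period gene, was at 4.73 and 3.98 FPKM against 8.02 and 8.34 (-0.91, SE 0.13, adjusted p = 0.0522). Per1 was at 6.39 and 4.62 against 10.3 and 11.5, Per2 at 3.11 and 1.59 against 3.85 and 3.71, and Cry2 at 6.50 and 5.85 against 9.09 and 9.75. In females Per3 was at 6.96 and 6.39 against 4.57, 4.92 and 5.03. The difference between the sexes for Per3 was -1.38 log2 units (limma adjusted p = 0.270), and the hour of tissue collection is not given in the sources used here.

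Nuclear hormone receptors and their targets had 12 of 21 genes (57.1%, against 31.7% of all tested genes) below and 2 above, unchanged in number after rescaling. The median was -0.46, and -0.21 without WT male 2. Hsd11b1, which regenerates active glucocorticoid inside the cell, was at 66.6 and 87.5 FPKM against 187 and 203 (-1.35, SE 0.27, adjusted p = 0.0665). The glucocorticoid-induced genes Zbtb16 and Fkbp5 were at 2.79 and 2.13 against 6.06 and 5.22 and at 5.79 and 1.68 against 8.31 and 8.03. Cyp2b10, a target of the xenobiotic receptor CAR, was at 18.1 and 4.05 against 33.4 and 28.4. In females Cyp2b10 was at 7.07 and 12.4 against 0.583, 1.55 and 1.30, and the females were separated in the opposite direction.

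Skeletal muscle markers lay higher in both KO males. All 36 tested markers were higher, 30 of them (83.3%) with no overlap against 9.7% of all tested genes, and the median was 2.99 (3.33 for KO male 1 and 2.71 for KO male 2). The summed FPKM of the 36 was 16262 and 8761 in the KO males, 3116 and 649 in the WT males and 1688 to 8687 in the females, and none was at 0 in all 4 males. Acta1, skeletal actin, was at 2693 and 1614 against 432 and 96.3, Tnnt3 at 2011 and 1066 against 359 and 73.4, Tnnc2 at 1625 and 804 against 282 and 55.1, and Ckm, muscle creatine kinase, at 1098 and 465 against 159 and 31.3. Myh1, a fast myosin, was at 106 and 136 against 26.2 and 7.96, and the mitochondrial kinase Ckmt2 at 92.2 and 75.2 against 18.4 and 2.94. No marker passed the adjusted threshold, 20 had an adjusted p under 0.1, and the WT males themselves differed by a factor that brought the median to 1.69 without WT male 2 and 4.28 without WT male 1. In females all 36 were higher as well (median 1.53). Whether muscle attached to the dissected fat contributed was not tested.

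Several of the most separated higher genes are also expressed in muscle. Ankrd23, a sarcomere-associated ankyrin protein, was at 82.6 and 59.6 FPKM against 7.84 and 4.39 (3.58), Mybph, a myosin-binding protein, at 12.6 and 2.29 against 0.216 and 0.232 (4.59), and Nmrk2, a muscle nicotinamide riboside kinase, at 3.11 and 1.91 against 0.257 and 0.209 (3.39). Padi2, a protein deiminase, was at 11.8 and 12.8 against 2.70 and 0.966. Slc38a4, an amino acid transporter, was at 2.59 and 1.19 against 0.200 and 0.131, and Myoc (myocilin) at 3.49 and 2.16 against 0.449 and 0.440. Asb2, Asb12, Klhl30, Ppp1r27, Xirp2, Gm15816 and A630019I02Rik completed the 15 higher genes of greatest separation together with Ckmt2 and Gchfr.

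Gchfr, the feedback regulator of the tetrahydrobiopterin enzyme GCH1, had the widest separation of the higher genes outside the immune, cell division, ribosomal, short RNA and sex lists. It was at 59.1 and 80.7 FPKM in the KO males against 1.87 and 1.34 in the WT males (5.45, SE 1.27, adjusted p = 0.0835), and at 74.4 and 101 in KO against 0.855, 0.948 and 16.8 in WT females. The gene lies at chr2:119167773-119172390, on the chromosome that carries Ghrh. Mcts2, a retrocopy gene of the same chromosome known to be imprinted, was at 13.4 and 13.2 against 9.72 and 9.99 (0.43).

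Glucose and insulin genes were divided, with 9 of 34 above and 8 below (26.5% and 23.5%, against 9.7% and 31.7% of all tested genes). Glycolytic Pfkm, the muscle phosphofructokinase, was at 157 and 92.6 FPKM against 62.1 and 33.6, Gapdh at 478 and 418 against 333 and 224 and Aldoa at 3299 and 3066 against 2579.5 and 1477. The insulin signalling adaptors Irs2 and Pik3r1 lay below, Pik3r1 at 8.37 and 5.13 against 14.3 and 23.2. Trib3, a stress-induced inhibitor of AKT, was at 4.31 and 3.90 against 2.02 and 2.64.

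The excess of immune transcripts belonged to 1 library. Of 17 T cell markers all were higher on average, but only 2 were separated (11.8%, against 9.7% of all tested genes above). KO male 1 stood at a median of 6.40 and KO male 2 at -0.35 log2 units from the WT males. The summed T cell markers were 404 FPKM in KO male 1 against 4.32, 4.93 and 7.93 in the other males, B cell markers 263 against 17.7, 16.0 and 37.8, myeloid markers 2313 against 178, 291 and 635, and lymph node and lymphatic stroma 135 against 5.75, 7.22 and 18.4. Cd3g was at 38.7 FPKM in KO male 1 and at most 0.431 in the others, and Cd79a at 36.8 and at most 0.283. Without KO male 1 the myeloid median was -1.18, so its sign turned, and all 33 markers were lower. In females the myeloid median was -1.08, with 31 markers lower and 1 higher. The cytosolic ribosomal proteins followed KO male 1 too: 71 of 85 were higher, and the median was 0.68 in KO male 1 and -0.29 in KO male 2. In this list 1 was separated above and 2 below (1.18% and 2.35%, against 9.7% and 31.7% of all tested genes). Of its members Rpl3l, the muscle paralog, was at 45.1 and 27.7 against 9.16 and 2.01, and Rps27l at 99.5 and 93.3 against 123 and 121. Cell division genes passed the floor in 17 of 66 cases, with 2 above and 1 below (11.8% and 5.88%, against 9.7% and 31.7% of all tested genes).

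Ribosomal RNA was highest in KO male 2. Rn45s, the ribosomal precursor, was at 3282 and 4827 FPKM against 2173 and 1809 (1.01). Short structural RNAs had 5 of 12 above and 3 below (41.7% and 25%, against 9.7% and 31.7% of all tested genes). Their sum was 49625 and 97833 against 31545 and 33587. The libraries were made by selecting polyadenylated RNA, and the part of these RNAs in the other differences was not tested.

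WT male 2 stood apart in blood and early response genes. All 6 erythroid genes lay below (100%, against 31.7% of all tested genes), with a list median of -1.36 (-0.54 without WT male 2). Hba-a1, an alpha-globin, was at 220 and 234 FPKM against 321 and 868. Alas2, the erythroid haem enzyme, was at 3.49 and 3.28 against 5.71 and 15.2. The globin copies share sequence and their values may be split. Immediate early genes had 2 of 20 below (10%, against 31.7% of all tested genes). Their median was -0.66, which turned to 0.22 without WT male 2, and Jun was at 8.46 and 7.36 against 10.3 and 33.9. Nerve markers had 2 of 7 below (28.6%), and cholesterol synthesis 5 below and 1 above of 24 (20.8% and 4.17%). Chaperones had 7 below and 5 above of 31 (22.6% and 16.1%). Of all tested genes 31.7% lay below and 9.7% above.

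Other lower genes of large separation were Anxa8, an annexin, at 0.472 and 0.251 FPKM against 1.98 and 7.37, Cd164l2 at 0.728 and 1.002 against 3.11 and 3.95, Syn2, a synapsin, at 0.602 and 0.624 against 1.66 and 1.73, and the long noncoding RNA Bvht at 1.05 and 0.947 against 2.73 and 3.17. For Bvht the female difference was 0.29, against -1.56 in males.

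Across the separated genes, 79.1% of the 1070 higher ones with a female value were also higher in females labelled KO, against 40.5% of all tested genes, and 68.7% of the 3496 lower ones were also lower, against 59.5%. The sizes were smaller in females, with medians of 0.27 against 0.53 for the higher genes and -0.10 against -0.34 for the lower. The male libraries chose these genes, so the smaller female size is a description. The same-direction share over both directions was 71.2%, against 59.4% of all tested genes. Among the genes separated without KO male 2 it was 53.8%. No gene was called for the difference of the KO effect between the sexes (limma, 822 at an unadjusted p under 0.05), 601 were called without KO male 2 and 1 without WT male 2.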

How the data were processed

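BAT was snap-frozen, and its RNA was extracted, selected for polyadenylated RNA, made into TruSeq libraries and sequenced as paired reads of 50 bases. Per the labels, the authors ran bcl2fastq 1.8.4, TopHat2 2.0.11 on mm10 and Bowtie and deposited 1 table of FPKM for each library. The gene annotation is not given in the sources used here, and positions came from GENCODE M21 (GRCm38). FPKM keeps no fragment counts, so depth is unknown beyond a relative estimate from values of 0.001 to 0.15 FPKM. Dates stand in place of 25 gene symbols (18 tested).

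Log2 FPKM was used with no pseudocount, and a female value of 0 was treated as missing. limma 3.58.1 (R 4.3.3) fitted a mean for each of the 4 groups over all 9 libraries with a mean-variance trend. Calls had a Benjamini-Hochberg adjusted p under 0.05. On simulated data (11000 genes, KO males against WT males) it recovered 50% of genes changed by 1 log2 unit and 81% of those changed by 2. The simulation drew the noise of each gene independently, with no shift shared across a library. These rates therefore do not measure recovery in the real libraries. No overlap means that both KO males lay on one side of both WT males. Separation is the gap between them. The rescaled values exclude ribosomal and short structural RNA. Replicates are separate animals. No library was left out, and an ordinary linear model at an unadjusted p under 0.01 was an alternative. The study used such a model too, but on transcripts above 0 in every sample and for its genotype term, whereas here it was run on the 11039 genes and for the male contrast.

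The members, the gene lists and the tests were chosen with earlier results of these data known. Named genes were the 15 of largest separation in each direction outside immune, cell division, ribosomal, short RNA and sex lists, every called gene, up to 4 of the largest separation in each list, the 4 of highest FPKM in immune, cell division, muscle and ribosomal RNA lists, and Ghrh, Ghr, Igf1, Igf2, Ucp1, Lep, Svep1, Lmo1 and sex-linked genes. Some genes that this rule names are not reported here. Named after their values were seen were Stat5b, Insr, Ppargc1a, Cidea, Acot11, Nrg4, Adrb1, Pparg, Cd36, Cidec, Plin4, Fabp4, Pnpla2, Lipe, Angptl4, Fasn, Glul, Bcat2, Ppm1k, Hsd17b10, Nampt, Postn, Acta2, Cd300lg, Flt1, Cdh5, Pecam1, Fkbp5, Ckm, Gapdh and Aldoa. Tables were handled with pandas 2.3.3 in Python 3.11.15.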

Additional observations from a re-analysis of the deposited data

Results flagged for a closer look

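For 13 genes and 2 lists both KO-labelled males lay on one side of both WT males while both KO-labelled females lay on the other side of every WT female, so the sexes differed in direction. The values below are the male log2 difference less the female one. The limma test of that difference passed adjustment for none of the genes, and the lists were not tested. The mean log2 level of clock genes differed by -0.606 and that of short structural RNAs by 0.881. Among lipid genes the value was -0.45 for Pnpla2 and -1.11 for Acacb. In the citric acid cycle it was -0.419 for Ogdh and -0.298 for Cs. In amino acid breakdown it was -1.57 for Prodh, -1.09 for Glul, -1.08 for Bcat2, -1.03 for Ppm1k and -0.918 for Hsd17b10. The other genes were Nampt (-1.0), Per2 (-2.12), Per3 (-1.38) and Cyp2b10 (-5.0).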

How the results depend on the processing

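Against 13 calls in the main setting, there were 61 at a floor of 5 FPKM, 24 with a pseudocount of 1 and 4 after median centring. There were 2 with no floor, 2 with no mean-variance trend and 1 after quantile normalization. In that order these sets held 9, 13, 3, 2, 2 and 1 of the 13 genes. There were 0 with only the 4 male libraries (1136 at an unadjusted limma p under 0.05). The ordinary linear model called 684 at an unadjusted p under 0.01. Leaving out a library gave 0 to 1192 calls, and a floor of 5 gave 2950 separated genes. Separated genes stayed at 4568 without a female library, since females take no part in that count. They numbered 6828 to 8737 without a male library, but a group of 1 library meets the no-overlap rule more easily. That rise therefore does not measure sensitivity to processing. The same-direction shares without a male library are taken over these larger sets. The count for the difference between the sexes was 1 with no floor, 203 under the ordinary linear model and 0 to 601 with a library left out. The same-direction share was 71.2% in the main setting, against 59.4% of all tested genes. It was 68.3% after median centring, 68.7% with no floor, 68.6% after quantile normalization, 72.6% after rescaling and 53.8% to 72.4% with a library left out. Among named genes, the log2 difference of Fasn ran from -0.598 without KO male 2 to 0.454 without KO male 1 (0.447 without WT male 1), and that of Pecam1 from -0.643 without KO male 1 to 0.0421 without KO male 2. The cause of the shifts other than that in separated genes without a male library was not tested. No paired analysis was possible because the labels give the males no shared replicate numbers. FPKM holds no counts, so counting error is unknown.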
